A study of Mus musculus with 7 samples.

Results

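The vitamin A handling genes are 9 genes of retinol transport, oxidation and signalling, taken from a named list: Rbp2, Rbp4, Lrat, Rdh7, Dhrs9, Aldh1a1, Aldh1a2, Cyp26b1 and Rarb. All 9 were measured, each by a single probe set that carries 1 gene symbol, among 19938 genes on 7 one-colour Affymetrix arrays. The arrays held RNA from the gut of C57Bl6/129Sv mice aged 3 months, either Atg4b knock-out (KO) or wild-type (WT). Atg4b encodes a protease that processes the LC3 and GABARAP proteins used to form autophagosomes, and the labels say no more about the KO allele. Colon from mice given dextran sulfate sodium (DSS), a detergent-like polymer that damages colonic epithelium, by mouth for 7 days and then water for 3 days gave 2 KO arrays and 1 WT array. Untreated ileum gave 1 KO and 1 WT array, and untreated colon gave 1 KO and 1 WT array. The labels do not say whether arrays came from separate animals, so a p-value measures only the spread between these arrays.

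Vitamin A reaches the gut as retinyl esters and carotenoids. In the absorbing enterocyte, retinol is held by a cytosolic binding protein and esterified for export in chylomicrons. A part is oxidised, first to retinaldehyde by dehydrogenases of the short-chain family and then irreversibly to retinoic acid by retinaldehyde dehydrogenases. Retinoic acid binds nuclear receptors that act on DNA as dimers with retinoid X receptors, is cleared by enzymes of the Cyp26 family, and in the intestine is known for imprinting gut homing on lymphocytes and supporting IgA responses.

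The region before the transcription start is shown for 3 members: Dhrs9, the member with the largest change in DSS colon, Rbp2, the member that changed the other way, and Rarb, a receptor gene that is itself a textbook target of retinoic acid. Each line gives the 250 bases that precede the start listed by RefSeq on GRCm38.p6, written 5′ to 3′ on the strand of the gene, and all 9 members were found in that table. The Dhrs9 region lies at chr2:69380212-69380461 on the plus strand, the Rbp2 region at chr9:98490287-98490536 on the plus strand and the Rarb region at chr14:16575477-16575726 on the minus strand. Capitals mark 3 kinds of match, searched on both strands. The first is TATAAA, the letters of the box that positions the transcription machinery at many promoters. The second is TGANTCA, the core recognised by AP-1 factors. The last is a direct repeat of hexamers with 5 bases between them (in capitals too), a layout bound by retinoic acid receptor dimers. A hexamer counted in the search when it read AGGTCA, the form found in many nuclear receptor sites. It also counted when its middle letters differed and it read AGTTCA, the form known from the Rarb promoter itself. The search took the same pair with another opening letter, one of which reads GGGTCA with the rest of the word unchanged. The remaining form accepted by the search, again with that opening letter, reads GGTTCA in full.
Dhrs9: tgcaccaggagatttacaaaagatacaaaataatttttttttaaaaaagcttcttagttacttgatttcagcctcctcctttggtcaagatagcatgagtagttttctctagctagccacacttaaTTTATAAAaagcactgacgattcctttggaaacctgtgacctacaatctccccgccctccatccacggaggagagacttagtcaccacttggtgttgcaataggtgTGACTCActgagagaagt
Rbp2: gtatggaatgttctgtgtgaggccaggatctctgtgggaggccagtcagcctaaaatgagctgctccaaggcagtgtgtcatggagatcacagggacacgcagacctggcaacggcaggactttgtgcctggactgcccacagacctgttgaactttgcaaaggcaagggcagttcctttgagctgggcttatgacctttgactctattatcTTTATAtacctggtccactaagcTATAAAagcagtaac
Rarb: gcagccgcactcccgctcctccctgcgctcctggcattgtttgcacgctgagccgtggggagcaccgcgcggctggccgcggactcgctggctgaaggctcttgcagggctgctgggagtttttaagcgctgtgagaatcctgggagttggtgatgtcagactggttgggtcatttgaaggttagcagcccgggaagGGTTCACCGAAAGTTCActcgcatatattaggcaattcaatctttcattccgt

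The direct repeat with 5 bases between its hexamers occurred in 0.0883% of the 32851 promoter regions of this length in the table. Among the members it occurred in Rarb alone, at bases -53 to -37 from the start. The search accepted the form known from the Rarb promoter, so the Rarb match was built into it and is no result. The same hexamers 1 or 2 bases apart, found in 0.164% and 0.174% of all regions, had no match in these letters for any member. TGANTCA occurred in 6.75% of all regions and, among the members, in Dhrs9 at bases -18 to -12, in the second listed start of Rbp4 and in the first listed start of Aldh1a1. TATAAA occurred in 12.4% of all regions and, among the members, in Rbp2, Dhrs9, Cyp26b1 and the second listed start of Rbp4. Rbp2 held 2 copies, and in Dhrs9 2 matches on opposite strands overlapped at bases -124 to -117. A match in this window is a description of the letters and not a measured binding site.

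Several facts of the whole series bear on the results. The median probe-set intensity was 121.4 to 126.45 on the 7 arrays, and the number of arrays limits the precision. Atg4b stood at a log2 intensity of 5.39 to 5.45 on the 4 KO arrays and 7.35 to 7.72 on the 3 WT arrays, so the genotype labels held. The X-inactivation RNA Xist was at 12.16 to 12.55 on the 3 DSS arrays and at 5.19 to 5.52 on the 4 control arrays, which went against the labelled sex on 3 arrays, and DSS and this sex pattern cannot be told apart in any gene. Of 11 small intestinal enterocyte markers 10 were higher in ileum than in colon. Of 9 colonocyte markers 5 were lower in ileum (Car1, Car4, Aqp8, Slc26a3 and Slc26a2), 2 were higher (Guca2b by 2.87 ± 0.41 and Cdhr5 by 0.52 ± 0.11) and the others did not pass.

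**Figure D1:**
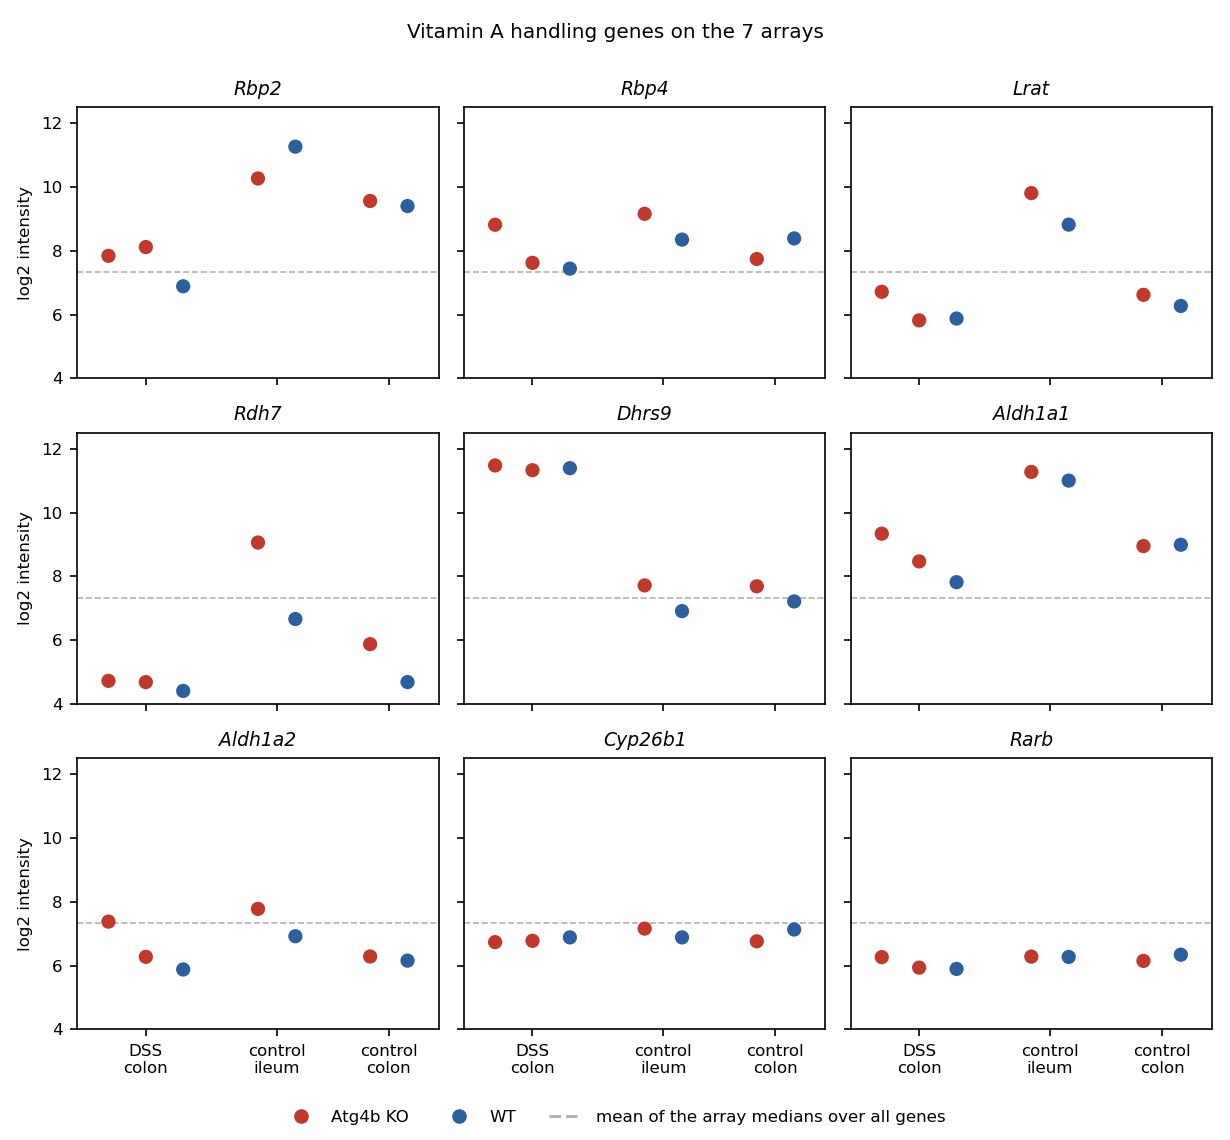
Log2 intensity of each of the 9 genes on the 7 arrays, grouped as DSS colon, control ileum and control colon, with KO in red and WT in blue; the dashed line is the mean of the array medians over all genes. Dhrs9 sits between 11.33 and 11.48 on the DSS arrays and at or below 7.72 elsewhere, while Lrat, Rdh7 and Aldh1a1 are highest on the ileum arrays.

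In DSS colon, Dhrs9 rose about 15-fold and Rbp2 fell about 3.7-fold, while the other 7 members did not pass the test. Dhrs9 encodes a short-chain dehydrogenase that can oxidise retinol to retinaldehyde. Its log2 intensity was 11.48 and 11.33 in KO DSS colon and 11.39 in WT DSS colon, against 7.69 in KO and 7.21 in WT control colon. The DSS arrays lay within 0.15 of each other and far above both controls. The difference was 3.88 ± 0.19 log2 units, a 14.8-fold increase (SE of the fit, 3 DSS against 2 control arrays; adjusted p = 0.000364 in limma), and ranked 26 by size among 19938 genes. Taken by genotype it was 3.71 in KO and 4.18 in WT mice, and it passed under all 19 alternative settings, which gave 3.54 to 4.51. In bulk tissue, more cells that express a gene and more RNA per cell cannot be told apart.

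Rbp2, the retinol-binding protein of absorptive enterocytes, was at 7.84 and 8.12 in KO DSS colon and 6.89 in WT DSS colon, against 9.56 in KO and 9.40 in WT control colon. All DSS values lay below both controls, and WT DSS colon was the lowest. On the linear scale the intensities were 229.5, 277.7 and 118.3 on the DSS arrays and 756.1 and 677 on the control arrays. The log2 difference was -1.90 ± 0.42 (adjusted p = 0.0391). This call was less firm than that for Dhrs9. Leaving out KO DSS replicate 2 gave -2.12 (adjusted p = 0.0594), and leaving out WT DSS colon gave -1.29 (adjusted p = 0.106). Leaving out KO control colon gave -1.92 (adjusted p = 0.233), and leaving out WT control colon gave -1.88 (adjusted p = 0.194), so none of these 4 arrays could be spared.

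The 2 members called were 1 higher and 1 lower. Of all genes, 7.2% were called higher and 3.43% lower in DSS colon, so a single member in each direction is no result about the group. Under quantile normalization 1265 genes were higher and 983 lower, and with each array centred on its median 1159 and 961, against 1436 and 684 in the values as deposited. Dhrs9 and Rbp2 kept their calls under both, but over all alternatives Rbp2 passed under 11 of 19. Rbp2 did not pass in limma with a variance trend and robust fit (adjusted p = 0.0624) or with the adipocyte mean as a covariate (adjusted p = 0.0946). The median difference of the 9 members was -0.22, beside -0.01 for all genes.

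Among the retinol-handling members that did not pass, Lrat, the acyltransferase that makes retinyl esters, was at 6.71, 5.82 and 5.88 on the DSS arrays (KO, KO, WT), against 6.62 in KO and 6.27 in WT control colon. These groups overlapped (-0.40 ± 0.28, adjusted p = 0.442). Rbp4, the carrier that brings retinol into the blood and is made by liver and fat, overlapped too, with 8.82 and 7.62 in KO and 7.44 in WT DSS colon, against 7.74 in KO and 8.39 in WT control colon (-0.17 ± 0.44, adjusted p = 0.868). Rdh7, a short-chain dehydrogenase active on retinols and steroids, was at 4.72 and 4.68 in KO and 4.41 in WT DSS colon, against 5.87 in KO and 4.68 in WT control colon (-0.87 ± 0.42, adjusted p = 0.252). In KO control colon it lay at the lower quartile of all genes (5.73 to 5.87 on the colon arrays). On the other colon arrays it lay well below that quartile, at percentiles 4.6 to 9.1, so a fold there may be understated.

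Among the enzymes that make retinoic acid, Aldh1a1 was at 9.34 and 8.47 in KO and 7.82 in WT DSS colon, against 8.95 in KO and 8.99 in WT control colon. KO DSS replicate 1 lay above both controls and the other two DSS arrays below them (-0.51 ± 0.33, adjusted p = 0.406), and without that array the difference passed (-0.83, adjusted p = 0.0224). Aldh1a2, the form known from stroma, mesothelium and gut dendritic cells, was at 7.38 and 6.28 in KO and 5.88 in WT DSS colon, against 6.29 in KO and 6.16 in WT control colon (0.18 ± 0.34, adjusted p = 0.811). Cyp26b1, which hydroxylates retinoic acid for removal, and the receptor gene Rarb differed by -0.13 ± 0.15 (adjusted p = 0.654) and -0.22 ± 0.15 (adjusted p = 0.427).

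**Figure D2:**
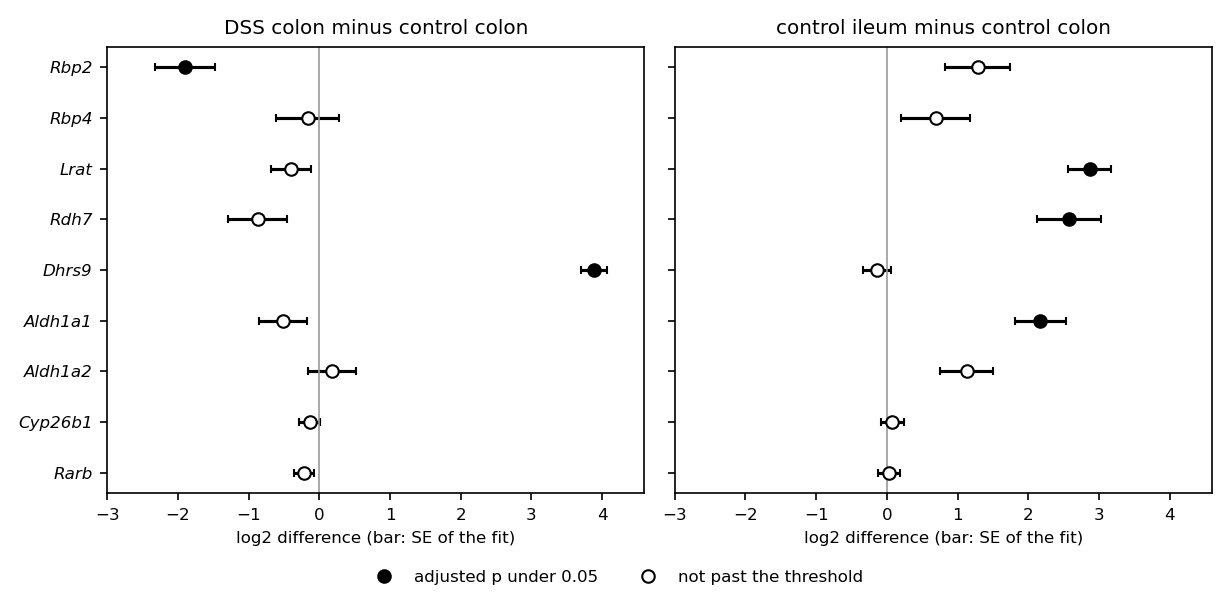
Log2 difference of each gene for DSS colon minus control colon (left) and control ileum minus control colon (right), with the SE of the fit as the bar and filled points for an adjusted p under 0.05. Dhrs9 (3.88) and Rbp2 (-1.90) are filled on the left, and Lrat (2.87), Rdh7 (2.58) and Aldh1a1 (2.17) on the right.

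Between the untreated tissues, Lrat, Rdh7 and Aldh1a1, which esterify retinol and oxidise retinol and retinaldehyde, were higher in ileum by 4.5-fold to 7.3-fold. No member was called lower. Lrat was at 9.81 in KO and 8.82 in WT ileum, against 6.62 in KO and 6.27 in WT colon. Both ileum arrays were above both colon arrays, by 2.87 ± 0.31 log2 units (2 against 2 arrays, adjusted p = 0.00264 in limma).

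Aldh1a1 was at 11.27 in KO and 11.00 in WT ileum, against 8.95 in KO and 8.99 in WT colon. The 2.17 ± 0.36 between the tissues (adjusted p = 0.0146) was far wider than the KO and WT gap within either tissue. Aldh1a7, a close mouse paralog whose transcripts a short probe may also pick up, was higher in ileum too, by 1.51 ± 0.32 (adjusted p = 0.0359).

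Rdh7 was at 9.06 in KO and 6.66 in WT ileum, against 5.87 in KO and 4.68 in WT colon. The tissues did not overlap (2.58 ± 0.45, adjusted p = 0.0176), but the ileum arrays differed from each other by 2.40, and the difference was 1.72 without the KO ileum (adjusted p = 0.0506). Rdh7 belongs to a cluster of similar dehydrogenase genes on chromosome 10, and these did not move alike: Rdh16 was lower in ileum (-2.35 ± 0.36, adjusted p = 0.0108), while Rdh9 stood at 1.18 ± 0.30 (adjusted p = 0.0659) and Rdh1 at 0.31 ± 0.13 (adjusted p = 0.231).

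Rbp2 was at 10.27 in KO and 11.27 in WT ileum, against 9.56 in KO and 9.40 in WT colon. The tissues did not overlap, yet the difference of 1.28 ± 0.46 did not pass (adjusted p = 0.165); it passed without the KO ileum (2.13, adjusted p = 0.0363) and when WT DSS colon was left out (1.28, adjusted p = 0.0473). Aldh1a2 was at 7.78 in KO and 6.92 in WT ileum, against 6.29 in KO and 6.16 in WT colon, again with no overlap and no call (1.13 ± 0.37, adjusted p = 0.136). Without KO DSS replicate 1, which enters only the error of this comparison, it passed (adjusted p = 0.00964). Rbp4 was at 9.16 in KO and 8.35 in WT ileum, against 7.74 in KO and 8.39 in WT colon (0.69 ± 0.48, adjusted p = 0.471), so WT ileum lay just under WT colon.

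The remaining members showed small tissue differences. Dhrs9 was at 7.72 in KO and 6.91 in WT ileum, against 7.69 in KO and 7.21 in WT colon (-0.14 ± 0.20, adjusted p = 0.744). Cyp26b1 ran from 6.74 to 7.16 over all 7 arrays and Rarb from 5.90 to 6.34, and their ileum minus colon differences were 0.08 ± 0.16 and 0.03 ± 0.16 (adjusted p = 0.834 and 0.938). Rarb, with the direct repeat printed above, and Cyp26b1 are both genes that retinoic acid induces in textbook systems. On these arrays they had the smallest ranges of the 9 members. Over the 7 arrays Rarb lay at percentiles 27.85 to 33.95 of all genes and Cyp26b1 at 39.04 to 47.21. Whether low signal narrowed these ranges was not tested.

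Of the 9 members, 3 were called higher and 0 lower in ileum (5 had an unadjusted p under 0.05 in limma, none of them lower), beside 5.94% and 3.22% of all genes. The member median was 1.13 and that of all genes -0.02. The members, like the wider list below, were chosen with earlier results of these data known, so these counts are no result about the group. The calls rested on few arrays. Without the KO control colon no member passed (Lrat 2.72, adjusted p = 0.0513), without the WT control colon 1 did, and leaving out either ileum array left 2. Lrat passed under 15 of 17 alternatives, Aldh1a1 under 12 of 18 and Rdh7 under 11 of 17.

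The order of the conditions differed by member, with ileum and DSS colon not tested against each other. For Lrat, Aldh1a1 and Rdh7 both ileum arrays were above all others, and control and DSS colon were not separated by the test. For Rbp2, ileum and control colon were not separated by the test and DSS colon was lower than control colon. For Dhrs9, the DSS arrays were above all others and the untreated tissues were not separated. No order could be given for Rbp4, Aldh1a2, Cyp26b1 and Rarb, whose conditions did not differ past the threshold.

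A wider list of 62 retinoid genes, of which 56 were measured, held 7 genes called higher and 4 called lower in DSS colon, with a median of -0.07, beside 7.2% and 3.43% of all genes. Ttr, transthyretin, the blood partner of Rbp4, fell by 3.02 ± 0.13 (adjusted p = 0.000212), with 7.66 and 7.74 in KO and 7.10 in WT DSS colon, against 10.54 in KO and 10.36 in WT control colon. Isx, a homeobox gene that represses carotenoid uptake and cleavage in the gut, rose by 2.93 ± 0.31 (adjusted p = 0.00458), with 9.74 and 8.65 in KO and 9.28 in WT DSS colon, against 6.46 in KO and 6.09 in WT control colon. Both were clear of overlap. The carotenoid cleavage gene Bco1, which Isx represses, stood at -0.32 ± 0.12 (adjusted p = 0.165) and Bco2, which cleaves carotenoids at another bond, fell by 1.35 ± 0.21.

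Among the other retinol and retinal dehydrogenases and reductases, 1 gene was called higher and 2 lower in DSS colon. Rdh10, the dehydrogenase that provides retinaldehyde in embryos, rose by 1.16 ± 0.22 (adjusted p = 0.0247). Adh1, an alcohol dehydrogenase that also takes retinol, fell by 0.85 ± 0.20 (adjusted p = 0.0455), and the dehydrogenase gene Sdr16c6 fell by 0.45 ± 0.10 at values of 5.11 or less throughout. The third retinaldehyde dehydrogenase gene, Aldh1a3, rose by 1.67 ± 0.39 (adjusted p = 0.0449), with 8.25 and 9.29 in KO and 9.38 in WT DSS colon, against 7.18 in KO and 7.46 in WT control colon. Dgat2, which esterifies diglycerides, rose by 1.36 ± 0.17. Among target and homing genes Tgm2, a transglutaminase, rose by 2.23 ± 0.26, and Madcam1 and Itgb7, the homing addressin and the integrin chain that binds it, rose by 0.65 ± 0.15 and 0.53 ± 0.11. None of the 7 measured receptor and co-factor genes and none of the 3 breakdown genes passed (adjusted p in limma from 0.0509 for Cyp2s1 to 0.998 for Rxra), with 1 gene of each set, Rxrb and Cyp2s1, at an unadjusted p under 0.05.

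In ileum 12 of the 56 genes were higher than in colon and 4 lower, with a median of 0.10, beside 5.94% and 3.22% of all genes. Isx (4.76 ± 0.34), Bco1 (0.97 ± 0.13), Rbp7 (1.16 ± 0.20), Dgat1 (2.76 ± 0.14), Dgat2 (2.08 ± 0.19), Lipe (1.32 ± 0.20) and Aldh1a7 were higher among genes of uptake, storage and oxidation. Dgat1 can also esterify retinol. The receptor genes Rxra (1.18 ± 0.16) and Rara (0.66 ± 0.12), the gut homing receptor Ccr9 (2.22 ± 0.26), Itgb7 (0.77 ± 0.12) and Tgm2 (1.35 ± 0.28) were higher as well. Adh1 (-3.12 ± 0.22), Ttr (-3.11 ± 0.14), Rdh16 and the retinol transporter Stra6 (-0.91 ± 0.16) were lower in ileum.

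**Figure D3:**
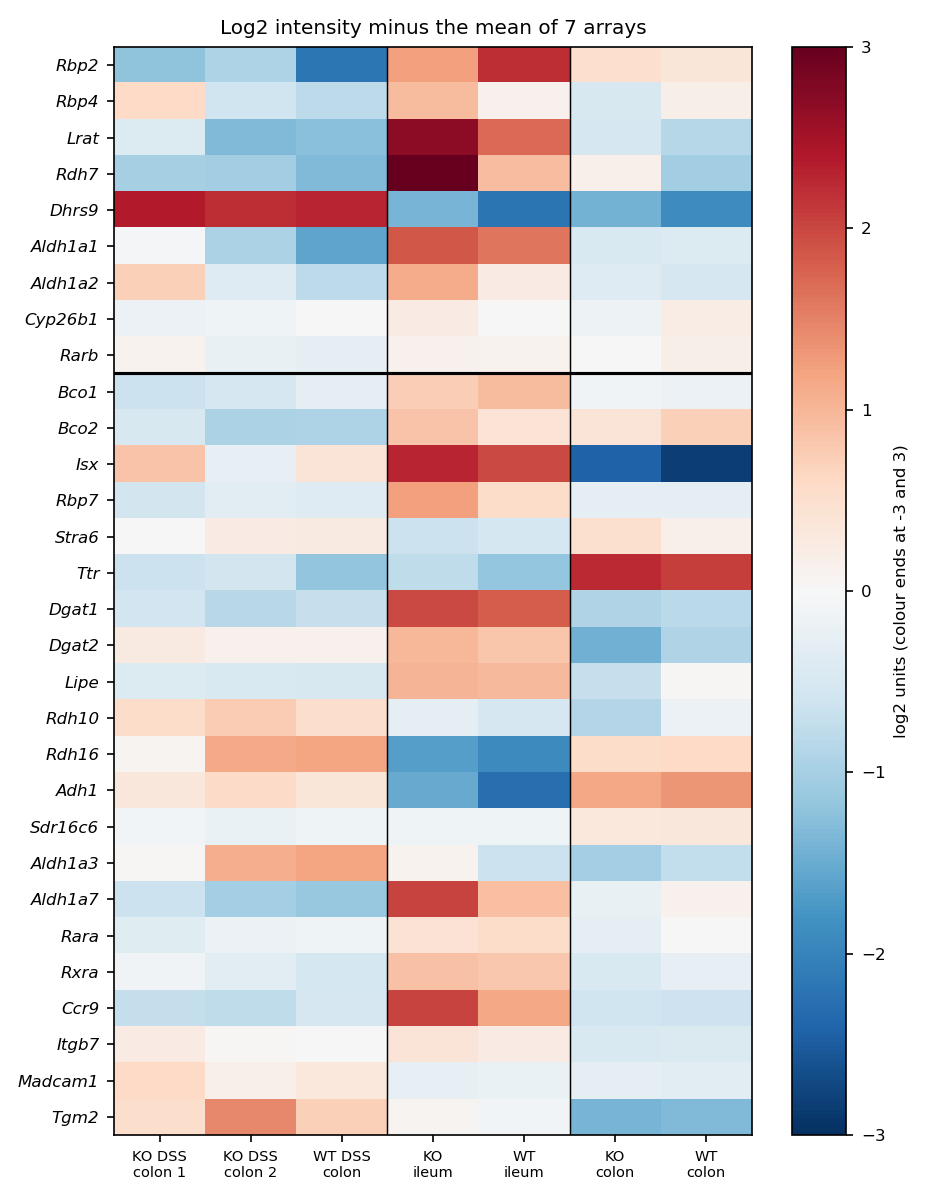
Log2 intensity of the 9 members (above the line) and of the other retinoid genes called in either comparison (below it), each minus its own mean over the 7 arrays, with arrays in columns. Dhrs9 is high on the 3 DSS arrays alone, Ttr is high on the 2 control colon arrays, and Lrat, Rdh7, Aldh1a1, Isx and Dgat1 are highest in ileum.

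Markers of other cell types moved with several of these values. The mean of 10 smooth muscle markers was 10.57 and 9.67 in KO and 9.16 in WT DSS colon, against 11.07 in KO and 11.14 in WT control colon, and 3 of the 10 fell. With that mean in the model Dhrs9 still rose, by 3.54 (adjusted p = 0.00800), and Rbp2 stood at -1.0 and did not pass (adjusted p = 0.597). Each DSS array was lower in muscle markers than both controls, so this model moves some of the treatment difference into the muscle term. With the pan-epithelial mean in its place Rbp2 stood at -3.41 and again did not pass (adjusted p = 0.0784), while Dhrs9 rose by 4.51 (adjusted p = 0.00810). In limma 0 of 7 pan-epithelial markers passed for DSS (2 had an unadjusted p under 0.05), and their mean was 12.22, 12.28 and 12.26 on the DSS arrays (KO, KO, WT), against 12.10 in KO and 12.20 in WT control colon. Each DSS array was slightly above both controls in this mean, so the epithelial model too mixes the treatment difference with the marker term. Colonocyte markers averaged 11.88 and 11.35 in KO and 11.77 in WT DSS colon, against 12.14 in KO and 12.25 in WT control colon, with 3 of 9 lower. Neutrophil markers averaged 8.22 and 8.69 in KO and 8.67 in WT DSS colon, against 6.84 in KO and 6.66 in WT control colon, with 5 of 6 higher. Macrophage markers averaged 8.13 and 8.15 in KO and 8.02 in WT DSS colon, against 7.68 in KO and 7.51 in WT control colon, with 3 of 7 higher and 1 lower. Both means separated DSS from control colon arrays, as Dhrs9 did. The part of these cells in the Dhrs9 difference was not tested.

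For Aldh1a2 and Rbp4, markers of the outer lining of the gut and of fat were set beside the values. The mean of 6 mesothelium markers was 7.64 and 6.81 in KO and 6.44 in WT DSS colon, 7.94 in KO and 7.63 in WT ileum, and 7.02 in KO and 6.59 in WT control colon. KO DSS replicate 1 and the ileum arrays were high for these markers and for Aldh1a2 alike. In a model that also held the mesothelium mean, an alternative chosen after the values were known, the ileum difference of Aldh1a2 was -0.07 (adjusted p = 0.927), and that of Aldh1a1 was 0.97 (adjusted p = 0.161), while Lrat still passed (2.15, adjusted p = 0.0479). Both ileum arrays had higher mesothelium means than both control colon arrays, so here too the model moves some of the tissue difference into the marker term. The mean of 8 adipocyte markers was 7.92 and 6.73 in KO and 6.56 in WT DSS colon, 9.37 in KO and 9.68 in WT ileum, and 7.05 in KO and 8.82 in WT control colon. As in these means, Rbp4 was lower in KO than in WT control colon and higher in KO DSS replicate 1 than on the other DSS arrays, but WT ileum, highest in adipocyte markers, did not stand out for Rbp4. The part of fat and mesothelium in these values was not tested beyond these models. Of 7 hepatocyte markers 2 were lower in DSS colon and 1 in ileum, with 0 higher in either. Alb was at 5.45 to 6.69 on all arrays, but other markers of this list were not flat. Ttr fell in DSS colon as given above. Cyp2e1 was at 5.46 to 6.84 in DSS colon, 9.09 in KO and 9.90 in WT ileum, and 5.79 in KO and 10.06 in WT control colon. Of 8 dendritic cell markers 1 was higher in DSS colon and 3 in ileum, Itgax among them both times (0.69 ± 0.13 and 1.02 ± 0.15).

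**Figure D4:**
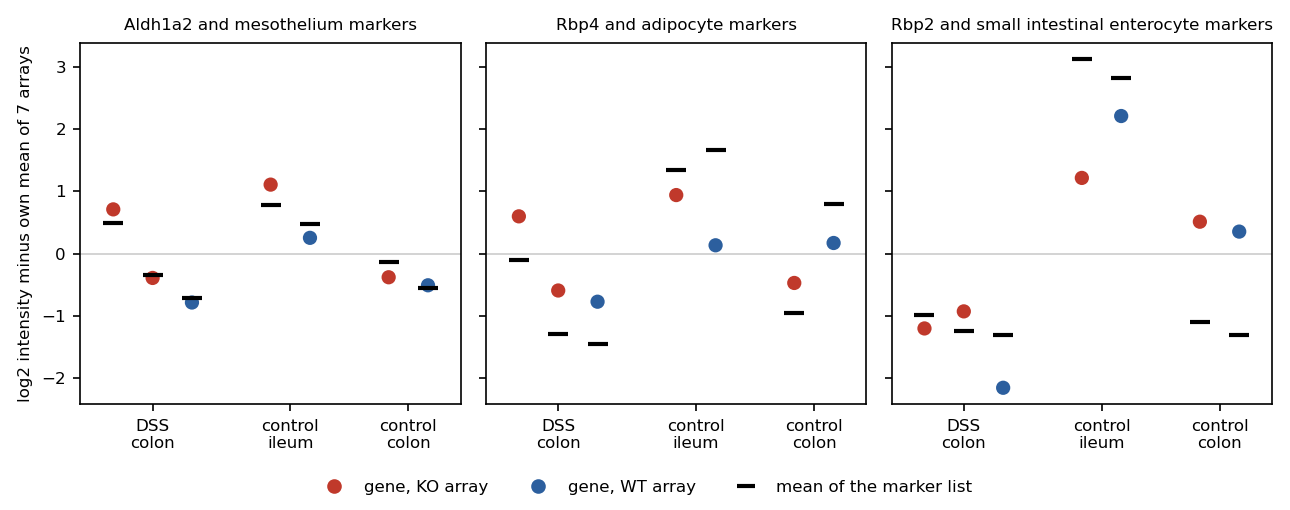
Log2 intensity of Aldh1a2, Rbp4 and Rbp2 (circles) beside the mean of mesothelium, adipocyte and small intestinal enterocyte markers (bars), each minus its own mean over the 7 arrays. Aldh1a2 and its bars are both highest on the KO ileum array and both lowest on the WT DSS array, and in control colon Rbp2 lies above the enterocyte bars, whose means there are 6.85 and 6.64, close to the 6.65 to 6.97 of DSS colon.

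Markers of small intestinal enterocytes, the cells best known for Rbp2, were not called in DSS colon. Their mean over 11 genes was 6.97 and 6.71 in KO and 6.65 in WT DSS colon, against 6.85 in KO and 6.64 in WT control colon, and 0 of 11 passed in limma, also at an unadjusted p under 0.05. In ileum it was 11.09 in KO and 10.79 in WT. Several of these markers lay below the lower quartile of all genes in control colon, so a fall there could hardly be seen. Sis was at 4.82 in KO and 4.67 in WT, Fabp6 at 5.22 and 5.17, and Fabp1 at 4.25 and 4.24. Others, such as Slc5a1 at 10.42 and 10.45, lay well above it. Fabp2 was at 10.68 on KO DSS replicate 1, against 7.78 on replicate 2 and 7.73 in WT DSS colon. The median ileum minus colon difference of these markers was 4.95, beside 1.28 for Rbp2.

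No member passed between KO and WT. Over all conditions 8 of the 9 differences (4 KO against 3 WT arrays) were positive, with a median of 0.39 against -0.01 for all genes, and 0 of 9 were called, beside 0.00502% of all genes, which is Atg4b alone. At an unadjusted p under 0.05 limma passed 2 of the 9 members and 720 of 19938 genes. Rdh7 had the largest value, 1.20 ± 0.35 (adjusted p = 0.989), and ranked 11 by size among all genes. KO minus WT was 0.30 in DSS colon, 2.40 in ileum and 1.19 in control colon, a 5.27-fold gap in ileum between single arrays. Rdh7 lay at or below the lower quartile of all genes in colon, which limits the colon values.

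Aldh1a2 (0.68 ± 0.29) and Lrat (0.56 ± 0.24) were higher in KO in each condition on average, both with an adjusted p of 0.989. Aldh1a2 differed by 0.95 in DSS colon, 0.86 in ileum and 0.13 in control colon, and Lrat by 0.39, 0.99 and 0.35 in the same order. Aldh1a1 (0.50 ± 0.28) differed by 1.09 in DSS colon and by 0.27 and -0.04 in ileum and control colon. The other 5 members lay between -0.08 ± 0.13 for Cyp26b1 and 0.39 ± 0.16 for Dhrs9. In DSS colon the KO arrays disagreed with each other. KO replicate 1 exceeded KO replicate 2 by 1.19 for Rbp4, 1.10 for Aldh1a2, 0.90 for Lrat and 0.87 for Aldh1a1, and it was also higher in the means of smooth muscle, mesothelium and adipocyte markers given above. The mean of fibroblast and stroma markers was also higher on KO arrays within each condition. Over 8 genes it was 9.93 and 9.50 in KO against 8.89 in WT DSS colon, 9.71 in KO against 9.07 in WT ileum, and 9.59 in KO against 9.40 in WT control colon. The median KO minus WT difference of these markers was 0.50, beside 0.39 for the 9 members, and in limma 0 of 8 passed while 6 had an unadjusted p under 0.05. For 7 macrophage markers the median was 0.29, with 0 called and 4 at an unadjusted p under 0.05. The part of stroma and macrophages in the members' KO values was not tested.

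**Figure D5:**
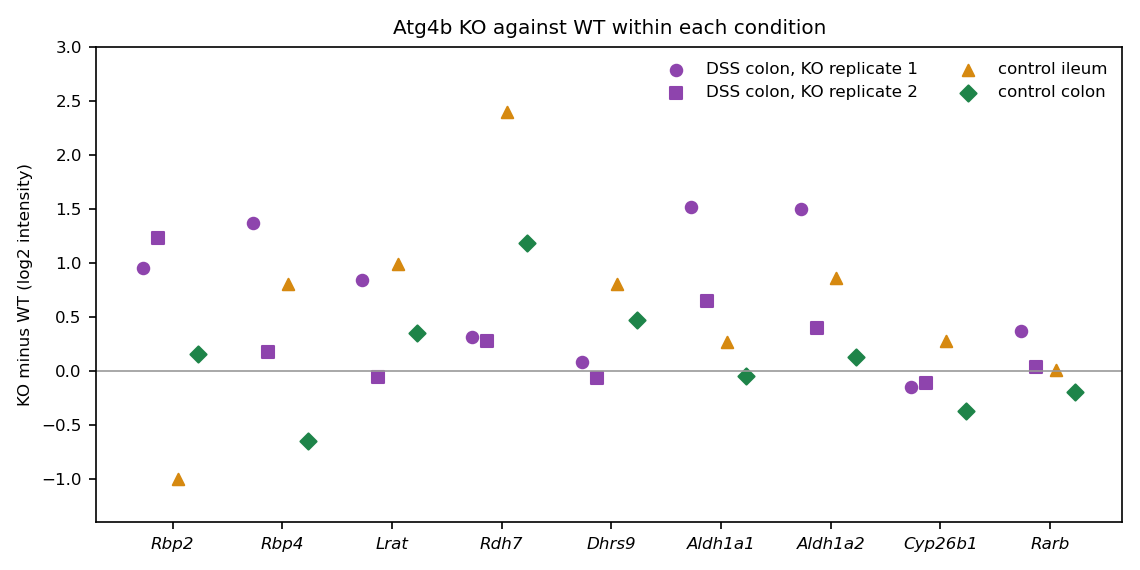
KO minus WT difference in log2 intensity for each gene, with 1 point for each KO array in DSS colon (purple), for ileum (orange) and for control colon (green), none of them tested alone. Rdh7 in ileum is the largest at 2.40, and Rbp2 lies at -1.0 in ileum and above 0 in both colon conditions.

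Whether DSS altered the KO effect was asked with an interaction term. It set KO against WT in DSS colon beside KO against WT over control ileum and control colon together, so tissue is mixed into it. By the labels, KO controls were male and WT controls female, while the KO DSS arrays were female and the WT DSS array male. The interaction therefore cannot be told apart from labelled sex, although Xist went against these labels on the WT arrays. No member passed, and 0% of all genes did in limma, while 3 members and 639 genes had an unadjusted p under 0.05. These 3 were Rbp2 (1.51 ± 0.44), Rdh7 (-1.50 ± 0.44) and Dhrs9 (-0.63 ± 0.23), each with an adjusted p of 0.9999. On the DSS arrays Rdh7 lay below the lower quartile of all genes, which limits its value here. For Rbp2, KO minus WT was 1.09 in DSS colon, -1.0 in ileum and 0.16 in control colon, and for Dhrs9 it was 0.01, 0.81 and 0.48. With the colon arrays alone, the interaction values were smaller, at 0.93 for Rbp2, -0.89 for Rdh7 and -0.47 for Dhrs9. A second interaction, chosen after seeing the values, asked whether the KO effect differed between ileum and colon. It gave -1.69 ± 0.43 for Rbp2 and 1.72 ± 0.39 for Rdh7 (both with an adjusted p of 0.980), with no member called beside 0.01% of all genes.

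For each member, the genes with the most similar pattern over the 7 arrays were ranked by Pearson's r among 2032 other genes that varied by an SD of at least 0.5. The arrays fall into 3 conditions, so high values are common and are given as a description. Dhrs9 was closest to the chemokine Cxcl10 (r = 0.991), to Xist (0.990), which here marks the DSS arrays, and to the interferon-induced Trim30a (0.989). Rbp2 was closest to Jchain, the joining chain of IgA and IgM (0.980), Crip1 (0.962) and the cobalamin carrier Tcn2 (0.958). Aldh1a1 was closest to Tmem150a (0.998), Aamdc (0.995) and Mapk4 (0.991), and Lrat to Fam234b, Mexis and Orm1 (0.993 each). Rdh7 was closest to the complement gene C7 (0.986), the apolipoprotein Apoa4 (0.984) and Ces1c (0.974).

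Aldh1a2 was closest to Upk1b (0.969), Cpn1 (0.943) and Gpm6a (0.942), of which Upk1b and Gpm6a are among the mesothelium markers used above. Rbp4 was closest to Slc36a4 (0.951), Cyp2c65 and Gpc3 (0.934 each). Rarb, which varied little, was closest to Acaa2 (0.974), Svil (0.973) and Slc24a3 (0.968). Cyp26b1 had the least similar neighbours, Hsd17b13 (0.889), Sytl5 (0.860) and an immunoglobulin segment (0.857).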

How the data were processed

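Total RNA of mouse ileum and colon was labelled with a kit for sense-strand Affymetrix targets, as the labels' protocols state. The authors deposited a linear intensity per probe set and array, from 10.4 to 22236.4; for probe summary and normalization the method is not given in the sources used. Array medians were close, so the values were taken as normalized, and log2 was computed here. Of 35512 probe sets, 21789 carry 1 symbol in the platform annotation, 1621 several and 12102 none here. The probe set with the highest mean stood for each of 19938 genes (999 had several).

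Differences were tested with limma 3.58.1 (lmFit, eBayes) under R 4.3.3. P-values were adjusted across all 19938 genes (Benjamini-Hochberg) and called below 0.05. Condition and genotype entered additively over 7 arrays (3 residual degrees of freedom); the interaction left 2. With 1 array in 5 of 6 groups, the error includes disagreement of effects between conditions. Values with ± are log2 differences with the SE of the fit. Scripts were tested on simulated data. Promoter sequences came from RefSeq, GRCm38.p6. Figures used matplotlib 3.10.9. Alternatives were other normalizations, filters, probe-set rules, variance models, covariates and leaving out each array. Named genes were all members, other retinoid genes past the threshold, and the 3 nearest neighbours of each member. The members and lists were chosen with earlier results of these data known.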

Additional observations from a re-analysis of the deposited data

How the results depend on the processing

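Dhrs9 in DSS colon kept its direction and its call under all 19 alternatives. The count of members called, 2 for DSS, was 1 with a variance trend and robust fit and 1 with the smooth muscle, pan-epithelial or adipocyte mean as a covariate, and ran from 1 to 3 when single arrays were left out. For ileum against colon, 3 members became 1 with dim genes left out, 0 with the pan-epithelial, 1 with the mesothelium and 2 with the adipocyte covariate, 4 with labelled sex or the smooth muscle covariate, and 0 to 4 without single arrays. The KO count stayed at 0 throughout, and the interaction count was 0 except for 3 with the pan-epithelial covariate and 1 without KO DSS replicate 2, a range of 0 to 1 over left-out arrays. Rbp2, Rdh7 and Dhrs9, the members named above for the interaction, were not among these interaction calls, and the members called are not given here. Dim genes left out removes members from the test, and each covariate takes a degree of freedom. The cause of other changes was not tested. Among all genes, 2120 were called for DSS and 183 to 3549 without single arrays, 229 with the muscle, 41 with the epithelial, 1293 with the adipocyte and 3494 with the mesothelium covariate; for ileum 1826, against 660 to 2418, 1891, 58, 1164 and 1112 in that order. For KO, 1 or 0 genes passed under every alternative run. For the interaction it was 0, with 2 under the variance trend, 12 with the muscle, 507 with the epithelial covariate and 0 to 279 without single arrays.

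Some differences changed sign, none of them called, among them Rbp2 (1.28) and Aldh1a2 (1.13) in ileum and Rdh7 (-0.87) in DSS colon. In DSS colon with the smooth muscle covariate these were Rbp4 (1.00), Aldh1a1 (0.69) and Rarb (0.19), with the epithelial covariate Rbp4 (0.22), Lrat (0.43), Rdh7 (0.50) and Cyp26b1 (0.013), and with the adipocyte covariate Rbp4 (0.39). In ileum against colon they were Rarb with median centring (-0.0091), Rbp2 (-1.22) and Dhrs9 (0.89) with the epithelial covariate, Rbp4 (-0.40), Dhrs9 (0.015), Cyp26b1 (-0.019) and Rarb (-0.27) with the adipocyte covariate, and Rbp4 (-0.64), Aldh1a2 (-0.074) and Rarb (-0.39) with the mesothelium covariate. For KO they were Rbp2 (-0.0076) and Rarb (-0.059) with the muscle and Dhrs9 (-0.0051) with the epithelial covariate. Without single arrays, DSS differences spanned -0.96 to 0.48 for Rbp4, -0.25 to 0.53 for Aldh1a2 and -0.36 to 0.053 for Cyp26b1; ileum differences -0.028 to 1.41 for Rbp4, -0.44 to 0.16 for Dhrs9, -0.18 to 0.33 for Cyp26b1 and -0.13 to 0.19 for Rarb; and KO differences -0.42 to 0.69 for Rbp2, -0.23 to 0.045 for Cyp26b1 and -0.091 to 0.12 for Rarb. The interaction could not be fitted with labelled sex as a term, because labelled sex coincides with it once condition and genotype are in the model. Nor could it be fitted without the WT DSS array. The adipocyte and mesothelium covariates were chosen after seeing the data. Signals at or below the lower quartile, as for Rdh7 in colon, limit folds. No paired analysis was run, because the labels do not say which arrays, if any, share an animal.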
